A study of Homo sapiens with 6 samples.

Results

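LINC symbols are numbered names given to long non-coding RNA loci of the class called intergenic. The expressed ones in RKO cells were chosen by their symbol, LINC followed by digits, and by their raw counts, at least 20 in 3 or more of the 6 libraries, which gave 127 of 1737 LINC rows and of 28278 rows in all. Despite the name, 15 of the 127 overlap a protein-coding gene in RefSeq and 2 are now listed as protein-coding. RKO is an established human line derived from a colon carcinoma. In 3 libraries (shTRIM21) the cells stably carried a lentiviral short hairpin RNA against TRIM21, a ubiquitin ligase that binds antibodies inside the cell. In the other 3 (shControl) they carried a scrambled hairpin. All 6 cultures were thus infected and kept in puromycin at 5 µg/ml, from 36 h after infection for 2 to 3 weeks. Total RNA was depleted of ribosomal RNA and sequenced. The libraries are labelled biological replicates, but the labels do not say how many hairpins or infections each arm holds, so p-values measure the spread between these libraries.

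Long non-coding RNAs are transcribed by RNA polymerase II and are often spliced and polyadenylated like messenger RNAs. Many are kept at low levels because the nuclear exosome, with its NEXT and PAXT adaptor complexes, degrades them. Some act on a neighbouring gene in cis, others act elsewhere in the cell, and for most no function is known.

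Total counts ran from 33499827 to 44466137 per library, of which 14.7% to 36.9% were ribosomal RNA, highest in shControl replicates 3 and 1. TRIM21 was lower in shTRIM21, with counts of 299, 271 and 297 against 459, 421 and 343 (log2 fold change -0.54, edgeR adjusted p = 0.00424). Of 10 colon epithelial markers 8 had a mean of at least 1 CPM (reads scaled to a common library total after TMM factors), among them KRT8, KRT18, EPCAM and CDX2, while MUC2 was under 1 CPM and LGALS4 was listed at 0. Their summed level was 4639 to 4881 CPM in shTRIM21 and 5971 to 6637 CPM in shControl. That sum is almost all KRT8, KRT18 and KRT19, which were lower (log2 fold changes -0.44, -0.46 and -0.38), whereas CDH1 was higher (0.57, edgeR adjusted p = 3.31e-05) and EPCAM, KRT20, CDX2 and VIL1 were not called. Of the markers of other cell types, 4 of 5 fibroblast, 4 of 5 leukocyte and 4 of 4 endothelial genes were under 1 CPM, DCN, LUM, CD3E and CDH5 being listed at 0. Fibroblast markers summed to 10.4 to 10.8 CPM in shTRIM21 and 6.12 to 9.19 CPM in shControl, almost all from COL1A1. Leukocyte markers summed to 6.13 to 6.82 CPM and 7.34 to 8.61 CPM, almost all from CD68, and endothelial markers stayed under 1 CPM. The part of these levels in the results below was not tested.

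Between the groups 20 of the 127 LINC genes changed, 15 of them higher and 5 lower in shTRIM21 by edgeR's quasi-likelihood fit over 15131 genes, at an adjusted p below 0.05. Among the rises were LINC02458 (2.34-fold), LINC01694 (2.30-fold) and LINC01106 (1.40-fold), and among the falls LINC01089 (1.75-fold), LINC00941 (1.66-fold) and LINC01128 (1.39-fold). LINC01770 (3.61-fold higher) and LINC02535 (3.19-fold lower) had the largest folds, but each reached 20 counts in 1 group alone and so could enter the set only by differing. Over all tested genes 20.8% were called, 9.77% higher and 11.0% lower. The LINC shares were 15.7%, 11.8% and 3.94%. The median log2 fold change was 0.20 over the LINC genes and 0.0054 over all tested genes, and 89 of the 127 LINC values were above 0. In bulk RNA a change in the number of cells that transcribe a gene cannot be told apart from a change in RNA per cell.

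LINC genes were measured with few reads. Their median count was 66.0, against 687 over all tested genes. Among genes with a mean under 100 counts, 5 of 71 LINC genes rose and 2 fell, 9.86% in all, beside 8.24% of all tested genes in that band (6.59% higher and 1.65% lower). From 100 to under 500 counts, 8 of 42 rose and 1 fell, beside 14.1% and 5.47% of all genes. At 500 counts or more, 2 of 14 rose and 2 fell, beside 9.16% and 16.5%. The lean towards positive values was present in all genes of the lowest band as well, whose median log2 fold change was 0.20 against 0.30 for LINC genes, and 65.8% of whose values were above 0 against 74.6%. From 100 to under 500 counts the shares above 0 were 62.4% of all genes and 59.5% of LINC genes. At 500 counts or more they parted, at 41.1% and 78.6%, with medians of -0.037 for all genes and 0.098 for the 14 LINC genes. The difference between LINC genes and other genes of a band was not tested.

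**Figure D1:**
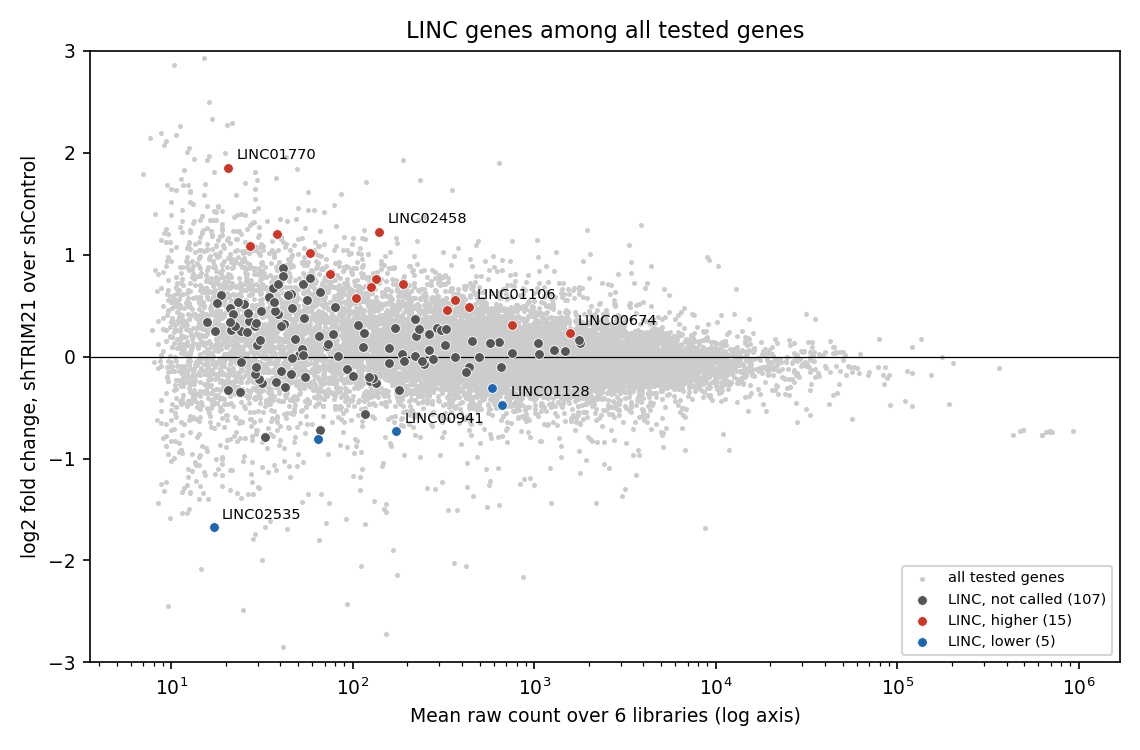
Each point is a gene, with its mean raw count over 6 libraries (log axis) against its log2 fold change, shTRIM21 over shControl. Grey points are all tested genes, 4 of which lie outside the plotted range of 3 in either direction, and the 127 LINC genes are coloured by call. LINC genes sit in the lower part of the count range, and the spread of all genes narrows with count.

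**Figure D2:**
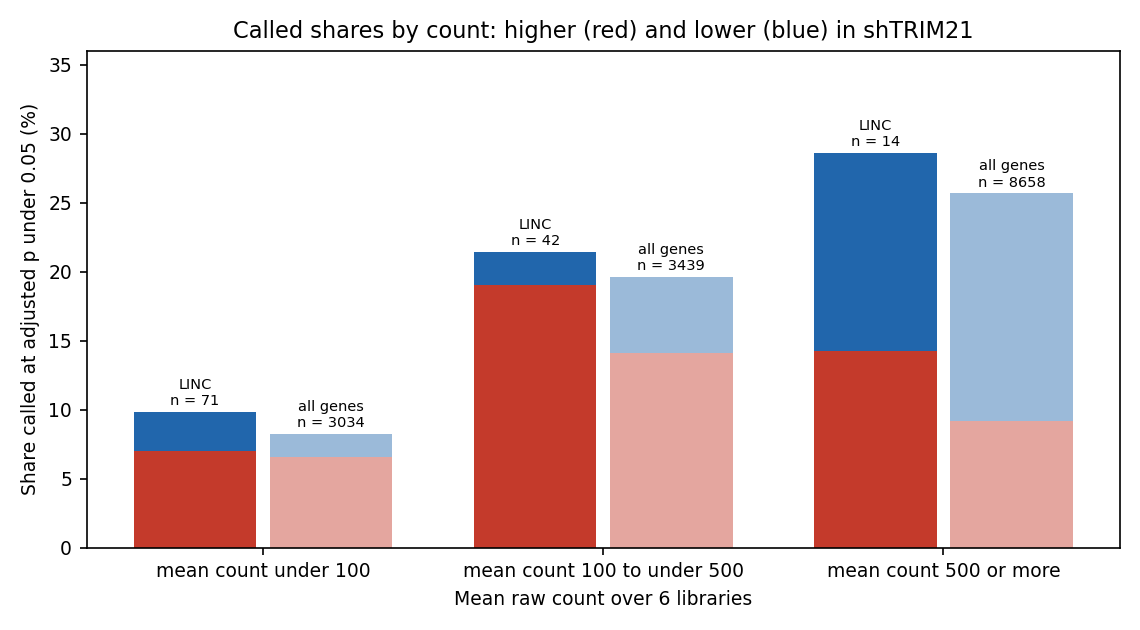
Bars give the share of genes called at an adjusted p under 0.05 in 3 bands of mean raw count, with LINC genes in full colour and all tested genes in pale colour. The red part is the share higher in shTRIM21 and the blue part the share lower. Called shares of LINC genes were 9.86%, 21.4% and 28.6%, beside 8.24%, 19.6% and 25.7% of all genes.

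Scaling changed the split of the calls. With upper-quartile factors 17 LINC genes were higher and 3 lower, while 1899 of the 3060 genes called over the whole table were higher and the median of all tested genes was 0.047. With library sizes alone 21 LINC genes were higher and 1 lower. This scaling moved the median of all tested genes to 0.22 and that of the LINC genes to 0.42, and left 1831 of 1969 called genes on the higher side. Without shControl replicates 1 and 3, the libraries richest in ribosomal RNA, 4 LINC genes were higher and 2 lower, and 12.4% of all tested genes were called. Leaving out shTRIM21 replicate 2 alone gave 10 higher and 3 lower LINC genes and took the called share of all tested genes from 20.8% to 12.0%, and leaving out any other single library took it to between 15.3% and 16.9%.

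Start regions of 92 of the 127 are in the RefSeq promoter table of GRCh38.p14, 108 regions of 300 bases running from 250 bases before to 50 after a start. Shown here are those at the 5′ end of 6 called genes, chosen for the smallest p-values among members in the table (LINC02458, LINC01106 and LINC00941), the overlapping pair LINC01270 and LINC01271, and LINC02535 beside NT5E. They run 5′ to 3′ on the strand of the gene, with capitals for 5 words searched on both strands. The word bound by TEAD factors is GGAATG, and that of AP-1 factors is TGANTCA. The cAMP response word is spelled TGACGTCA, the E-box searched is CACGTG, and the word for the TATA box is TATAAA. No capital words overlap in these regions. Positions are chr12:89019643-89019942 (minus), chr2:110384487-110384786 (minus), chr12:30795431-30795730 (plus), chr20:50292470-50292769 (plus), chr20:50321293-50321592 (minus) and chr6:85404753-85405052 (minus), in the order given.
LINC02458: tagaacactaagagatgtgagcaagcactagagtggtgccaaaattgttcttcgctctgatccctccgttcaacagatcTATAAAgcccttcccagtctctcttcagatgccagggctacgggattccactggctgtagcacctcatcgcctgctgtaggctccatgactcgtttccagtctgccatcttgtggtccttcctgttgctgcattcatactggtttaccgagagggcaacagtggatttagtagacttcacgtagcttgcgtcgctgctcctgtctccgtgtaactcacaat
LINC01106: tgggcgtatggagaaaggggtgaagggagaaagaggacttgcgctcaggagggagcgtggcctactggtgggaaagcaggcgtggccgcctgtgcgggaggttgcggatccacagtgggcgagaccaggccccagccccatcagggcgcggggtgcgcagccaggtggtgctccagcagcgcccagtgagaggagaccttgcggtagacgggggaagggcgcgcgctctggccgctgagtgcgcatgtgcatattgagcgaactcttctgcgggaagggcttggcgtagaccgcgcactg
LINC00941: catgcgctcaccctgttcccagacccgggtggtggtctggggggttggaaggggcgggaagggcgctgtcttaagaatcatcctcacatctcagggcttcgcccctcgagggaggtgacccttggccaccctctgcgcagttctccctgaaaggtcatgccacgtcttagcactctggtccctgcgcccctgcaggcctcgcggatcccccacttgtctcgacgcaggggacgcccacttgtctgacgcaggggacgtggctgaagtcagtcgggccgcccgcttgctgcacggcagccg
LINC01270: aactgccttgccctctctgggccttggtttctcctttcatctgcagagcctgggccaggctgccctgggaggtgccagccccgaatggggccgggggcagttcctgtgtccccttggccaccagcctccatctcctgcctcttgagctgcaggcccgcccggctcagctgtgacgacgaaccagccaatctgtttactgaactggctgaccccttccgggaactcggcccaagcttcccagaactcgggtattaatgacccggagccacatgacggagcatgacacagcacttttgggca
LINC01271: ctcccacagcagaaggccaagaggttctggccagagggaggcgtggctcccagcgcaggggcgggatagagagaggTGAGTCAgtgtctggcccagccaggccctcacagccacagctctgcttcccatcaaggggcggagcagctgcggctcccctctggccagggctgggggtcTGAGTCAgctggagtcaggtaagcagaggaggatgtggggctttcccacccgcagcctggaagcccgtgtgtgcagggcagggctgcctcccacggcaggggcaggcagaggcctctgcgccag
LINC02535: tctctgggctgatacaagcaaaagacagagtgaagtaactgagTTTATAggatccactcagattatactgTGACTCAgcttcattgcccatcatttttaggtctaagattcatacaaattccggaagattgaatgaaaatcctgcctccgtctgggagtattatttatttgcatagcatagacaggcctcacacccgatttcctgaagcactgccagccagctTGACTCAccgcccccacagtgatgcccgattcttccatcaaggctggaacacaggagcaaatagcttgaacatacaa

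The AP-1 word stands at 2 places in both LINC01271 and LINC02535, its first base 174 and 74 bases before the start in LINC01271 and 180 and 27 bases before it in LINC02535. LINC01271 was higher and LINC02535 lower in shTRIM21. LINC02458 holds the TATA word 171 bases before its start, and LINC02535 holds it on the other strand 207 bases before. LINC01106, LINC00941 and LINC01270 hold none of the 5 words in these windows. Over the 108 regions of LINC genes, 11.1% hold the AP-1 word, 7.41% the TEAD word, 1.85% the cAMP response word, 8.33% the E-box and 15.7% the TATA word. Over all 35116 regions of the table these shares were 7.71%, 14.03%, 1.85%, 7.26% and 11.5%. Regions rich in CpG (over 50% GC and a CpG ratio over 0.6) made up 54 of the 108 regions of LINC genes and 46.8% of all. A match of letters shows no binding.

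LINC02458 had the smallest p-value of the 127. It lies on chromosome 12 at 89011126 to 89019692 on the minus strand (GRCh38.p14), and its GENCODE model has up to 3 exons. Its counts were 194, 207 and 192 in shTRIM21 and 87, 71 and 87 in shControl. Every shTRIM21 library was above every shControl library, and the levels were 5.18 ± 0.106 and 2.21 ± 0.248 CPM (SD, n = 3 each). This is a log2 fold change of 1.22 with an SE of 0.159 and a 95% interval from 0.89 to 1.56 (edgeR adjusted p = 8.25e-05). The coding genes measured on either side also rose. DUSP6, a phosphatase gene that restrains ERK signalling, lies 327543 bases away and changed by 0.24 (SE 0.053, edgeR adjusted p = 0.00461), and KITLG, which encodes the ligand of the KIT receptor, lies 430655 bases away and changed by 0.42 (SE 0.0674, edgeR adjusted p = 0.000546).

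LINC01106 and LINC01123, on chromosome 2, share much of their sequence. Of the 50-base words in the longest LINC01106 transcript, 90.1% also occur in LINC01123, and of those of LINC01123 62.9% occur in LINC01106. LINC01106 rose from 9.66 ± 0.443 to 13.5 ± 0.820 CPM (SD, n = 3 each), with counts of 539, 499 and 506 in shTRIM21 and 347, 357 and 365 in shControl. Its groups stand well apart, at a log2 fold change of 0.48 (SE 0.0946, edgeR adjusted p = 0.0023). LINC01123 had the most reads of all LINC genes, with counts of 1856, 1933 and 1878 against 1559, 1788 and 1652. Its groups did not overlap in CPM either, but the change of 0.13 (SE 0.0666) was not called (edgeR adjusted p = 0.181). How the authors' counting shared reads between such genes is not given in the sources used here, so the values of both are uncertain. LIMS4, a coding gene that LINC01106 overlaps, was at -0.15 and not called.

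LINC01270 and LINC01271 rose together at one locus. They lie on opposite strands of chromosome 20, at 50292720 to 50314919 and 50310711 to 50321342, and overlap. LINC01270 had counts of 267, 246 and 200 in shTRIM21 and 141, 136 and 144 in shControl, and LINC01271 had 214, 162 and 138 against 94, 94 and 106. In both, replicate 1 was the highest of the shTRIM21 libraries and the groups did not overlap. The log2 fold changes were 0.71 (SE 0.146, edgeR adjusted p = 0.00313) and 0.76 (SE 0.188, edgeR adjusted p = 0.0105). Of the 50-base words of LINC01270, 45.3% occur in LINC01271 on the other strand or the same, so without stranded counting reads from that part cannot be told apart. The coding genes on either side were not called higher. CEBPB, 100030 bases from LINC01270, was at -0.19 (SE 0.273, not called), and the tyrosine phosphatase gene PTPN1, 195464 bases away, fell by 0.40 (SE 0.0517, edgeR adjusted p = 7.86e-05).

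LINC02535 fell beside the gene for the ecto-nucleotidase CD73. It lies on chromosome 6 at 85387219 to 85404802 on the minus strand, 45281 bases from NT5E. Its counts were only 6, 4 and 15 in shTRIM21 and 22, 26 and 30 in shControl, or 0.219 ± 0.156 and 0.706 ± 0.123 CPM (SD, n = 3 each). The libraries of the groups did not overlap, with a log2 fold change of -1.67 (SE 0.465, edgeR adjusted p = 0.0193). NT5E itself went from 85.6 ± 5.13 to 31.6 ± 1.66 CPM (SD, n = 3 each), a change of -1.44 (SE 0.0658, edgeR adjusted p = 4.78e-09). LINC02535 reached 20 counts in shControl libraries alone, so the rule fixed the direction of its difference.

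LINC01770 is the matching case on the other side, reaching 20 counts in shTRIM21 libraries alone. Its counts were 36, 31 and 31 against 10, 9 and 7, with no overlap, and its log2 fold change was 1.85 (SE 0.373, edgeR adjusted p = 0.00276). It lies on chromosome 1 at 1430157 to 1434573 and overlaps TMEM278 and LOC107985729. VWA1, a matrix protein gene 1117 bases away, rose to 72.2 ± 4.49 CPM (SD, n = 3) in shTRIM21, a change of 0.53 (SE 0.0736, edgeR adjusted p = 0.000154). With a rule on the mean of all 6 libraries, at least 20 counts, 15 LINC genes were higher and 4 lower.

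LINC01128 was the best measured of the genes that fell. Its counts were 548, 577 and 583 in shTRIM21 and 781, 715 and 795 in shControl, or 14.9 ± 0.429 and 20.7 ± 1.24 CPM (SD, n = 3 each), with the groups apart. The log2 fold change was -0.47 (SE 0.0824, edgeR adjusted p = 0.000994). LINC00115, which starts 69 bases away on the other strand of chromosome 1, was at -0.30 and not called. The nearest coding gene, SAMD11, was at 0.12 and not called.

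LINC00941, an RNA studied in several carcinomas, colorectal cancer among them, also fell. Its counts were 122, 143 and 134 in shTRIM21 and 209, 238 and 194 in shControl, again without overlap. It went from 5.79 ± 0.601 to 3.48 ± 0.206 CPM (SD, n = 3 each), a log2 fold change of -0.73 (SE 0.144, edgeR adjusted p = 0.00228). CAPRIN2, an RNA-binding protein gene 40730 bases away on chromosome 12, was at 0.17 and not called.

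Of the other falls, LINC01089 had few reads and LINC00623 shares much of its sequence with another LINC gene. LINC01089, also known as LIMT, had counts of 57, 35 and 51 in shTRIM21 and 89, 97 and 57 in shControl. In CPM its highest shTRIM21 library, 1.52, was just under the lowest shControl library, 1.57, and the change was -0.81 (SE 0.273, edgeR adjusted p = 0.0483). Of its 50-base words, 53.3% occur in RHOF, a GTPase gene 1579 bases away in the RefSeq table that itself fell by 0.29 (SE 0.052, edgeR adjusted p = 0.00127). RHOF is not its nearest coding gene. LINC01089 overlaps SETD1B, which was not among the nearest coding genes that were called. LINC00623 had counts of 602, 490 and 498 against 651, 658 and 600, a change of -0.31 (SE 0.0998, edgeR adjusted p = 0.0388). It shares 68.0% of its words with LINC01145, another LINC gene of chromosome 1, which was at 0.27 and not called.

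Among the other rises, 3 genes lie on chromosome 22 and 2 on chromosome 21. LINC01315 had counts of 504, 432 and 392 against 320, 263 and 289, a change of 0.56 (SE 0.118, edgeR adjusted p = 0.00377), and 0% of its words occur in other genes. LINC01521 had 168, 146 and 160 against 96, 95 and 94 (0.69, SE 0.162, edgeR adjusted p = 0.00763). It starts 413 bases from PATZ1, a zinc finger gene on the opposite strand, which was at 0.13 and not called. LINC00896 had 76, 94 and 66 against 32, 41 and 39 (1.02, SE 0.250, edgeR adjusted p = 0.00968).

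On chromosome 21, LINC01694 had counts of 65, 46 and 51 against 22, 18 and 28 (1.20, SE 0.311, edgeR adjusted p = 0.0133). LINC01547 had 106, 84 and 100 against 47, 54 and 59 (0.81, SE 0.223, edgeR adjusted p = 0.0187). The nearest coding genes, the folate carrier gene SLC19A1 and SLX9, which LINC01547 overlaps, were at -0.095 and -0.11 and not called. In all 5 of these LINC genes the groups stood apart.

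LINC00674 had the highest level per length of all. Its counts of 1579, 1775 and 1811 in shTRIM21 and 1470, 1399 and 1389 in shControl gave 45.1 ± 2.89 and 38.4 ± 0.451 CPM (SD, n = 3 each). This rise of 1.17-fold was the smallest called (log2 fold change 0.23, SE 0.0645, edgeR adjusted p = 0.0205). LINC02693, LINC00909, LINC00342 and LINC00535 rose by 0.31, 0.46, 0.57 and 1.08, with edgeR adjusted p-values of 0.0152, 0.0113, 0.0481 and 0.0384. LINC00535 had counts of 29, 37 and 46 in shTRIM21 and 18, 13 and 20 in shControl. It met the count rule through its shTRIM21 libraries, and its shControl libraries alone would not have met it. The rule thus favoured the direction of its difference. LINC00909 starts 35 bases from the zinc finger gene ZNF407 on the opposite strand, which was at 0.12 and not called. LINC00342 shares 26.5% of its words with a gene that has no symbol of its own.

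**Figure D3:**
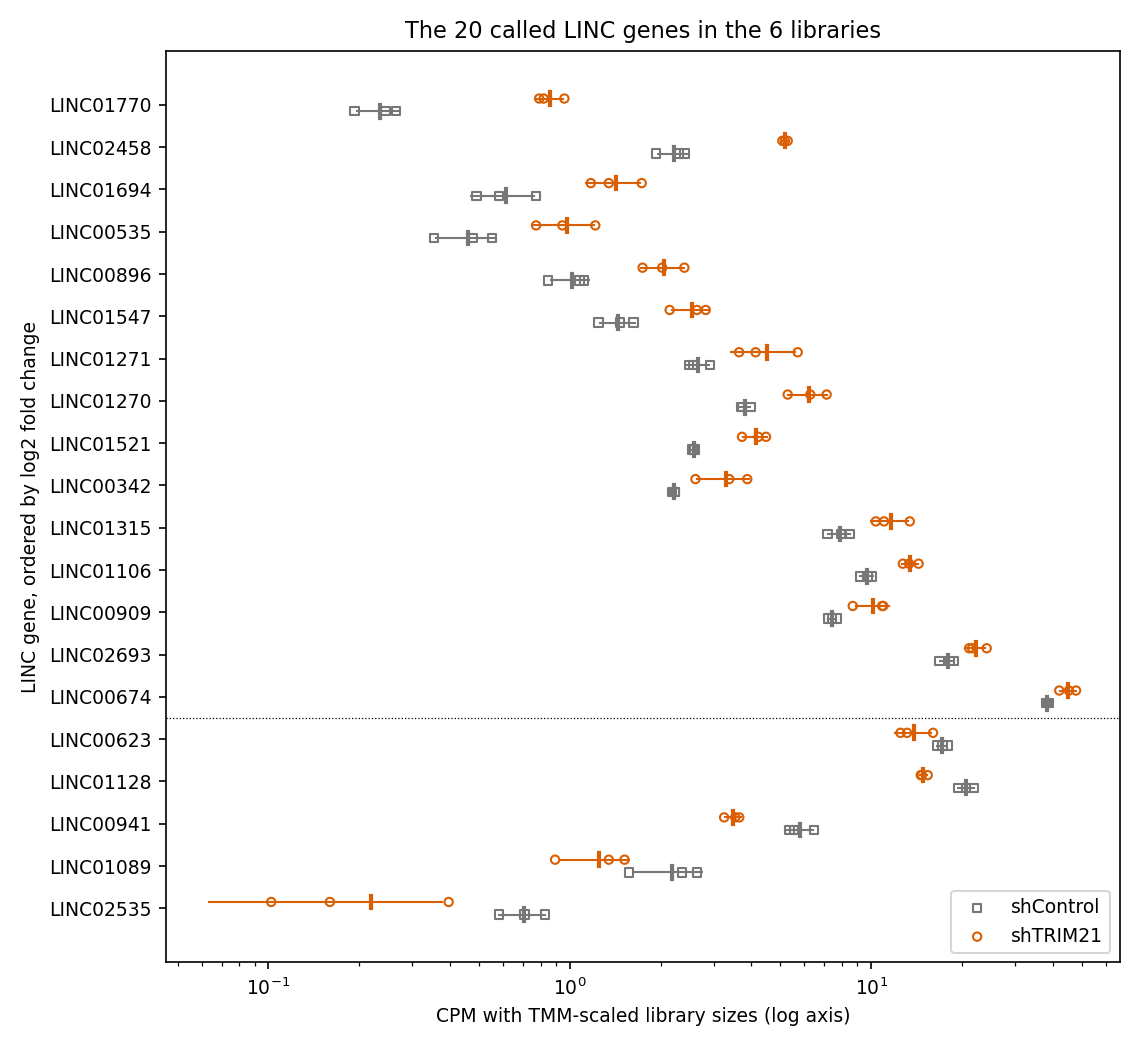
Levels of the 20 called LINC genes in CPM with TMM-scaled library sizes (log axis), 1 symbol per library, with the mean (tick) and SD (line) of 3 libraries per group. Genes are ordered by log2 fold change, and the dotted line parts the 5 lower from the 15 higher. The libraries of the groups do not overlap in any of the 20 genes, from 0.219 against 0.706 CPM in LINC02535 to 45.1 against 38.4 CPM in LINC00674.

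Groups that do not overlap were common among uncalled genes too. This held for 43 of the 127 LINC genes, 33 with shTRIM21 higher and 10 lower, or 33.9%, beside 37.7% of all tested genes (18.7% higher and 19.0% lower). The 23 of these that were not called include LINC00638 (0.87, edgeR adjusted p = 0.0574) and LINC00886 (0.71, edgeR adjusted p = 0.0527). Of the 107 uncalled LINC genes, 69 had a 95% interval that excluded a 2-fold change in either direction. For the remainder a 2-fold difference was not excluded at this depth.

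The call of 12 of the 20 was lost when some single library was left out, while calls over all genes fell as well. LINC02458, LINC01106, LINC01270 and LINC01315 were called under all 16 alternatives of the fit, and LINC00941, LINC01128, LINC01521 and LINC01770 whichever single library was left out. LINC00941 and LINC01128 were not called with library sizes alone (edgeR adjusted p = 0.0712 and 0.314), nor LINC01521 and LINC01770 without both shControl replicates 1 and 3 (0.0787 and 0.0802).

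LINC00896 and LINC00909 lost their calls without shTRIM21 replicate 2 (edgeR adjusted p = 0.0651 and 0.0705), and LINC01271 and LINC01694 without shTRIM21 replicate 1 (0.063 and 0.0691). Over all alternatives the adjusted p of these 4 ranged from 0.00206 to 0.126, 0.00377 to 0.143, 0.00066 to 0.086 and 0.00215 to 0.0691. Their log2 fold changes without any 1 library stayed between 0.89 and 1.13, 0.40 and 0.55, 0.55 and 0.89, and 1.03 and 1.39. LINC02693 lost its call without shTRIM21 replicate 3 or shControl replicate 1 (edgeR adjusted p of 0.0603 to 0.0662, log2 fold change 0.25 to 0.35 without any 1 library). LINC01547 lost it without either of these or shTRIM21 replicate 1 (edgeR adjusted p of 0.0554 to 0.0699, fold 0.71 to 0.91 on the log2 scale).

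LINC02535 was not called without shTRIM21 replicates 1 or 2 or shControl replicates 2 or 3 (edgeR adjusted p of 0.0512 to 0.0966), its log2 fold change running from -2.41 to -1.34. LINC00674 was not called without shTRIM21 replicates 2 or 3 or shControl replicates 2 or 3 (0.0505 to 0.0907), at log2 fold changes of 0.18 to 0.28. LINC01089 was not called without shTRIM21 replicates 2 or 3 or shControl replicates 1 or 2 (0.0826 to 0.18, log2 fold change -1.002 to -0.62), nor with upper-quartile factors, library sizes alone, limma-voom or the replicate block. With 1 library left out, LINC00342 and LINC00623 were called only without shTRIM21 replicate 1 (otherwise 0.0867 to 0.223 and 0.057 to 0.168), with log2 fold changes of 0.43 to 0.71 and -0.43 to -0.25. LINC00342 was also not called by DESeq2, limma-voom or the replicate block, and LINC00623 with upper-quartile factors or library sizes alone. LINC00535 lost its call whichever library was left out (0.0513 to 0.154, log2 fold change 0.89 to 1.22), and with DESeq2 and the replicate block. Over all LINC genes DESeq2 called 13 higher and 5 lower, and limma-voom 14 higher and 4 lower.

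Levels per length were low. With a GENCODE 29 exon model for 113 of the 127, the median was 0.794 CPM per kb of exon, with quartiles of 0.365 and 1.73. The median of 12802 protein-coding genes was 4.32, with quartiles of 1.39 and 10.99. The highest LINC genes per kb were LINC00674 at 56.9, LINC01123 at 14.4, LINC01001 at 8.92, LINC01315 at 7.69, LINC00623 at 7.50 and LINC01234 at 6.23 CPM per kb. The annotated exons of LINC00674 cover only 734 bases. In each library the LINC genes together took 0.101%, 0.101% and 0.103% of the counts other than ribosomal RNA in shTRIM21 and 0.0912%, 0.0888% and 0.0892% in shControl. The 20 most abundant held 62.2% to 64.6% of these LINC counts.

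**Figure D4:**
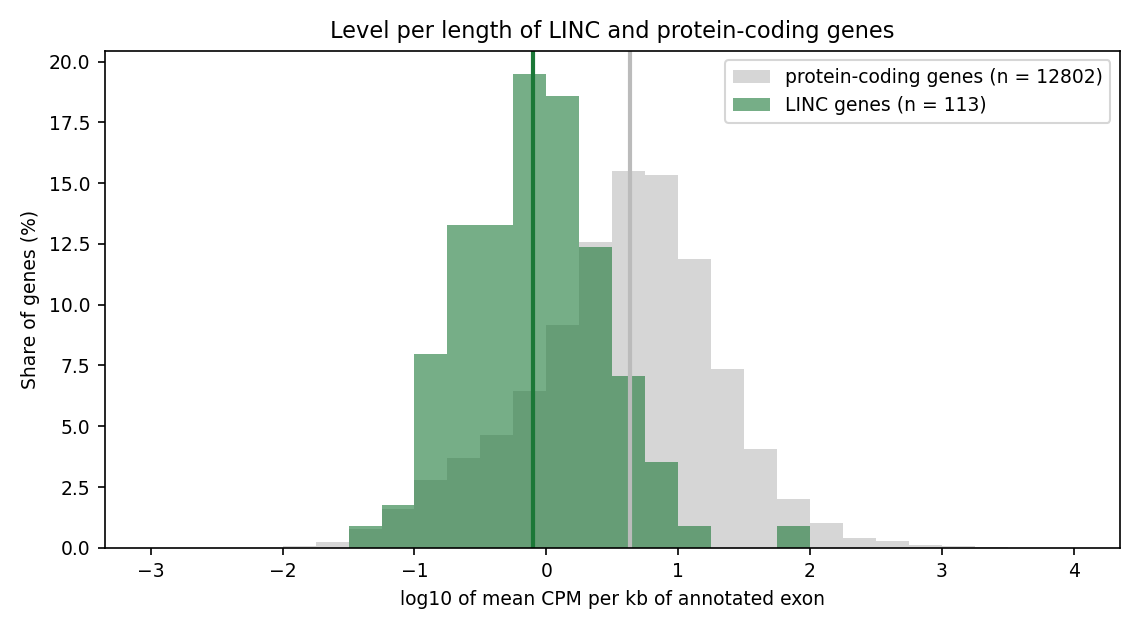
Histogram of the mean level over 6 libraries, as log10 of CPM per kb of annotated exon, for 113 LINC genes (green) and 12802 tested protein-coding genes (grey), as a share of each set. Vertical lines mark the medians, 0.794 and 4.32 CPM per kb.

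Most of the best measured LINC genes did not pass the test, and nor did most other genes at such counts. At 500 counts or more 28.6% of LINC genes were called, beside 25.7% of all tested genes. LINC02210 had counts of 1905, 1877 and 1868 in shTRIM21 and 1615, 1821 and 1448 in shControl, a change of 0.16 (SE 0.0749, edgeR adjusted p = 0.14). It was called without shControl replicate 2 (0.25, edgeR adjusted p = 0.0192). LINC01234, an RNA studied in carcinomas, had 1126, 1038 and 1179 against 945, 997 and 1005, a change of 0.13 (SE 0.0784, 95% interval -0.03 to 0.30). LINC01000, LINC01001 and LINC01002 were at 0.03, 0.06 and 0.05, each with an SE under 0.1. LINC01001 and LINC01002 share 82.9% and 91.7% of their words with other genes, so their counts are uncertain.

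Of the LINC genes listed for their study in tumours or for a known role, LINC00941 alone was called. Over all LINC genes 15.7% were called and over all tested genes 20.8%, so with so few listed genes this is not a result about the list. LINC00460, LINC00467, LINC00511, LINC00662, LINC00839, LINC00888 and LINC00963 were at -0.19, 0.02, 0.01, -0.26, -0.01, -0.33 and -0.03, none called, with edgeR adjusted p-values from 0.114 to 0.983. LINC01578, now named CHASERR, is known to hold down its neighbour CHD2, a chromatin remodeller gene. It had counts of 503, 500 and 446 in shTRIM21 and 508, 401 and 354 in shControl and was not called at 0.15 (SE 0.115, 95% interval -0.09 to 0.40). CHD2, 1577 bases away, fell from 70.7 ± 0.753 to 56.2 ± 4.48 CPM (SD, n = 3 each), a change of -0.33 (SE 0.0635, edgeR adjusted p = 0.00193).

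Neighbouring coding genes were called at shares near the 20.8% of all genes. For the 15 LINC genes that rose, the nearest tested coding gene rose in 2 cases (DUSP6 and VWA1), fell in 1 (KPNA2, beside LINC00674) and was not called in 12. For the 5 that fell, it fell in 1 case, NT5E, and was not called in 4. The pairs of NT5E with LINC02535 and VWA1 with LINC01770 carry a limit. Each of these LINC genes reached 20 counts in 1 group alone, so the rule fixed its direction. For the 107 uncalled LINC genes, 12 neighbours rose and 15 fell. The largest neighbour change was that of MYL2, a myosin light chain gene 15153 bases from LINC01405, which went from 1.97 ± 0.216 to 0.270 ± 0.0749 CPM (SD, n = 3 each; log2 fold change -2.85, SE 0.323, edgeR adjusted p = 2.21e-05). LINC01405 had counts of 48, 77 and 28 in shTRIM21 and 76, 88 and 79 in shControl. Its CPM groups did not overlap, and its change of -0.72 (SE 0.295) was not called (edgeR adjusted p = 0.0969).

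**Figure D5:**
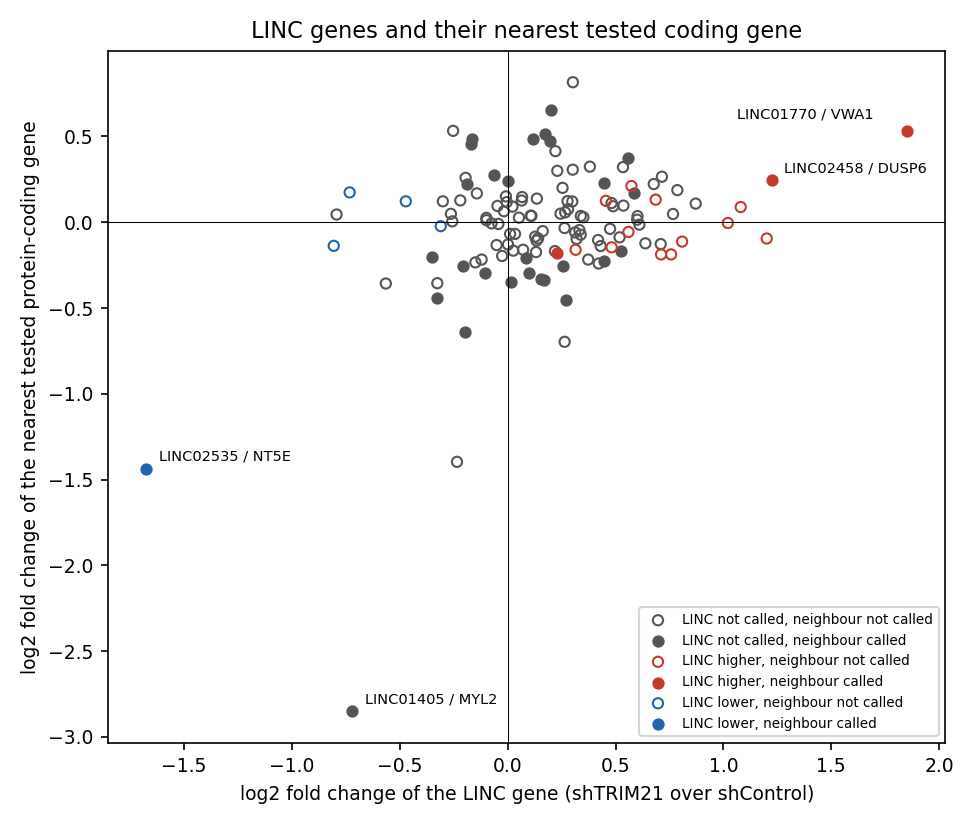
Log2 fold changes, shTRIM21 over shControl, of each of the 127 LINC genes (x axis) and of its nearest tested protein-coding gene (y axis). Colour gives the call of the LINC gene, and filled points are neighbours that were called. LINC02535 with NT5E (-1.67 and -1.44) lies apart at the lower left and LINC01770 with VWA1 (1.85 and 0.53) at the right, while most points lie near 0 on both axes. The count rule fixed the direction of LINC02535 and of LINC01770.

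Among 12 LINC genes that start within 1000 bases of the nearest coding gene on the opposite strand, of 115 with both strands known, 3 rose (LINC00909, LINC01521 and LINC01547). Their coding partners ZNF407, PATZ1 and SLX9 were at 0.12, 0.13 and -0.11. Of the 11 partners tested, 0 were called by edgeR, 0 by DESeq2 and 0 by limma-voom, and 1 had an unadjusted edgeR p below 0.05. Over all tested genes edgeR called 20.8% in either direction and 9.77% higher. Counts this small are not a result about such pairs, and the tools used the same reads. The partners' values ran from -0.13 at ICMT to 0.22 at RNF32. The 12 may miss some such pairs. LINC00535, which rose, lies 117 bases from CIBAR1 and LINC02495 184 bases from JAKMIP1, but without both strands known neither was counted. LINC01184, now named SLC12A2-DT, was judged only against CCDC192, which it overlaps.

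The symbols of 17 of the 127 are older names in the current RefSeq table, and 2 of these loci are now listed as protein-coding, LINC00634 as SMIM45 and LINC00672 as LASP1NB. Neither was called, at 0.34 and -0.33. GENCODE 29 classes 80 of 113 as lincRNA, 13 as processed transcript, 11 as transcribed pseudogene and 6 as antisense. In RefSeq, 68 of the 127 overlap another gene, 15 of them a protein-coding gene, where reads may be counted for either. Of the longest transcripts of the 113, 59 hold the polyadenylation word AATAAA in their last 50 bases and 11 hold ATTAAA alone. Among the 113, 38 share no 50-base word with another gene, and 12 share at least 50% of theirs.

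Other long non-coding RNAs at the same count rule were counted by class. Of 398 antisense genes 20 rose and 26 fell (11.6% called, median log2 fold change 0.028), and of 17 microRNA host genes 4 rose and 1 fell (median 0.14). Of 22 small nucleolar RNA host genes 1 rose and 21 were not called (median 0.046), and of 38 divergent or intronic genes 6 rose and 1 fell (median 0.28). Over all 14370 genes at that count rule 21.6% were called. Differences between these classes and the LINC genes were not tested. Of 18 genes of the nuclear exosome with its NEXT and PAXT adaptors, 2 fell and 16 were not called, a share of 11.1% lower beside 11.0% of all tested genes. These were ZCCHC8, the scaffold of NEXT, at -0.49 (SE 0.0744, edgeR adjusted p = 0.000313) and the exosome core gene EXOSC5 at -0.26 (SE 0.0863, edgeR adjusted p = 0.0451). Of 14 genes of Integrator, which ends transcription of many non-coding RNAs, 1 fell, INTS2 at -0.23 (SE 0.0594, edgeR adjusted p = 0.0137), and 13 were not called, 7.14% lower beside the same 11.0%. Neither share is a result about these complexes.

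Replicates of LINC genes varied with depth. The median coefficient of variation of CPM was 20.1% in shTRIM21 and 21.1% in shControl for genes under 100 counts, and 4.71% and 5.33% at 500 counts or more, with median SEs of the log2 fold change of 0.321 and 0.0796. The lowest members of the set, with a third-highest count of 20, were LINC02724, LINC00672 and LINC01503. Just outside it, at 19, were LINC00880, LINC02616 and LINC00861. Of the 1610 LINC rows outside the set 1156 were listed at 0 in all 6 libraries. Another 44 passed the filter of the test, and 3 of them were called, all higher. Over all tested genes with a mean under 100 counts, 6.59% were called higher and 1.65% lower. So small a count is not a result about these rows.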

How the data were processed

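Each library is a table of 28278 gene symbols with raw read counts, whole numbers that the authors deposited without normalization. TopHat2, edgeR 3.38.1, limma 3.52.2 and hg38 appear, per the submitters' processing notes, with nothing on their use. The counting program is not given in the sources used here, nor are the annotation and the strand setting, so reads of overlapping genes or near copies may be counted for either.

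The tools were edgeR 4.0.16, limma 3.58.1 and DESeq2 1.42.0 in R 4.3.3. Genes passing filterByExpr (minimum count 10, minimum total 15; 15131 genes) were scaled with TMM factors and compared by edgeR's quasi-likelihood F test over all 6 libraries, with Benjamini-Hochberg adjustment and a threshold of 0.05. All 127 members passed the filter. SEs of log2 folds were derived from F, as the absolute value over its root, and intervals are at 95%. The fit was also run on simulated data with known folds in far fewer genes than were called here, without the uneven ribosomal RNA. That run does not bear on how scaling altered the calls. Sample titles gave the group and the replicate number.

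The members and gene lists were chosen with earlier results of these data known. Named genes were the largest changes at 1 CPM or more, smallest p-values, highest levels, genes with a background, edges of the count rule and nearest coding genes. The remaining called genes, LINC00886, LINC00638, LINC01405 and the other neighbours, were added after their values were seen, as were the count bands and the search for shared 50-base words. Positions are from RefSeq (GRCh38.p14), where 110 members matched by symbol and 17 by an older symbol, and exons from GENCODE 29, which may differ from the authors' annotation. No position was converted between builds.

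The alternatives tried were 3 other scalings, no filter, no ribosomal RNA rows, 3 other tests, a replicate block, leaving out libraries and 3 other count rules.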

Additional observations from a re-analysis of the deposited data

How the results depend on the processing

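No LINC gene named in the text changed sign among those called, over 16 alternatives of the fit. Of 320 values of the 20 called genes over these alternatives, 256 stayed past the threshold. Of 272 values of 17 uncalled genes named by rule, 1 passed it, LINC02210 without shControl replicate 2. The number of LINC genes lower in shTRIM21, 5, was 3 with upper-quartile factors and 1 with library sizes alone. Leaving out both shControl libraries 1 and 3 gave 4 higher and 2 lower, with 6 of the 20 calls kept, and fewer samples were then tested. Leaving out 1 library gave 10 to 13 higher, 3 to 4 lower and medians from 0.14 to 0.20. The LINC median of 0.20 was 0.24 with upper-quartile factors, 0.42 with library sizes alone, 0.24 without both shControl libraries 1 and 3 and 0.13 for genes with at least 50 counts in 3 or more libraries. For TRIM21, library sizes alone gave -0.34, no longer called (edgeR adjusted p = 0.197, where its alternatives ranged from 0.000399 to 0.197), and the values without 1 library ran from -0.65 to -0.47. With the replicate block 13 LINC genes were higher and 4 lower, with 17 of the 20 calls kept. The labels do not say what a replicate number shares. Same-numbered libraries deviated from their group means with correlations of -0.0131, 0.0057 and -0.0798, and differently numbered ones with -0.0391 to 0.0505. With 3 libraries per group these values cannot decide whether the numbers pair the samples. Calls over all tested genes fell from 3146 to 1844 without shTRIM21 replicate 2, to 1969 with library sizes alone and to 1958 without both shControl libraries 1 and 3. The cause of the shifts was not tested. Depth limits genes under 100 counts, where the median SE was 0.321.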
